A study of Rattus norvegicus with 8 samples.

Results

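The IL-6 family cytokines, their receptors and the JAK1-STAT3 axis were followed as 10 genes in osteoblast-like cells exposed to low-level Er:YAG laser light. The genes were the ligands Il6, Il11 and Lif, the receptor chains Il6r, Il6st, Lifr and Osmr, the kinase Jak1, the transcription factor Stat3 and the feedback inhibitor Socs3. They were chosen by name from the 34912 gene names on the array, and 19 of its 45598 rat probes carry one of these names. Primary cells had been released by serial enzymatic digestion from the calvariae of Wistar rats aged 3-5 days, so the cultures are mixed and not pure osteoblasts. The laser was applied at 3.3 J/cm2 to 4 cultures, which were collected 6 h later, and 4 cultures of the same time point that received 0 J/cm2 served as controls. No genetic change was present in either group. All cells were grown in α-MEM with fetal bovine serum and an antibiotic-antimycotic mixture. An osteoinduction medium with ascorbic acid (50 µg/mL), β-glycerophosphate (10 mM) and dexamethasone (10 nM) is also described. The study's qPCR cultures received it right after irradiation. Its array methods name no medium, and the labels do not say which medium the cells on the arrays were in. Total RNA (200 ng) was labeled with Cy3 and hybridized to 1 single-color array per culture, and arrays of the same replicate number (1 to 4) were treated as a pair.

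Cytokines of this family signal through the shared receptor chain gp130, the product of Il6st. IL-6 and IL-11 first bind a receptor chain of their own, whereas LIF pairs gp130 with the LIF receptor, and oncostatin M pairs it with the oncostatin M receptor or the LIF receptor. The receptors activate JAK kinases, which phosphorylate STAT3, and STAT3 switches on Socs3, whose product binds the receptor and the kinase and shuts the signal down. In bone, osteoblasts and stromal cells both make these cytokines and respond to them, and IL-6, IL-11, LIF and oncostatin M are known to act on osteoblast differentiation and, through osteoblasts, on osteoclast formation.

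The question was whether the ligands, the receptors and the feedback gene differed between irradiated and non-irradiated cells. None of the 9 genes that could be tested passed the test, and Il6 itself was not well above background on any of the 8 arrays. The brighter Socs3 probe was the only 1 of 13 tested probes with a higher signal after irradiation in 4 of 4 pairs, as 3.57% of all probes were, by 0.18 ± 0.11 (log2, SE, n = 4 pairs, 1.14-fold), and its adjusted p (limma) was 1.00. The second Socs3 probe was higher in 3 of 4 pairs, by 0.13 ± 0.18, and differed by -0.04 without replicate 2. The 4 receptor genes had a median log2 difference of 0.14, Il11 and Lif together had one of -0.03, and Jak1 and Stat3 together had one of -0.05. The receptor median was -0.005 when probes had to be above background on all 8 arrays, which leaves out Lifr and Osmr. Both of these genes had passed the filter through the irradiated group only. Bulk RNA was measured, so that a change in the number of cells of a type and a change in RNA per cell cannot be told apart.

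Probes are named by their array identifiers and 60-base sequences, since several results turn on which probe reads a gene. The Il6 probe is shown because it carries the only reading of that cytokine. Both Lif probes are shown because they share 44 bases, set in capitals, and yet gave estimates of opposite sign. One probe each of Il6st, Jak1 and Socs3 is shown because a second probe of the same gene lies elsewhere in the transcript, and the capitals at the end of the Socs3 sequence are the stop codon.
Il6 A_44_P371339: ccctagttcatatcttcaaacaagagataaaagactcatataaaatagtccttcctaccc
Lif A_43_P12157: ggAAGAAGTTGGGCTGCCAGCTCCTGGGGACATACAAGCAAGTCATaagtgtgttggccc
Lif A_64_P115666: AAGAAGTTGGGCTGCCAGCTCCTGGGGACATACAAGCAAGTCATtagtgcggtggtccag
Il6st A_44_P363090: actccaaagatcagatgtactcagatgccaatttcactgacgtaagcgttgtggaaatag
Jak1 A_64_P124417: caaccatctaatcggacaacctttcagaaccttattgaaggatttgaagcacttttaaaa
Socs3 A_64_P125883: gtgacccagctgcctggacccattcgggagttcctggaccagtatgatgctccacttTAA

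Levels are given below as log2 of the quantile-normalized signal, and differences as irradiated minus non-irradiated on that scale. Levels of different probes are not compared with each other, because each probe binds with its own strength. Testing was limited to probes detected (well above background) on every array of either group, which held for 13 of the 19 probes. The other 6 probes belong to Il6, Il6r, Lif, Lifr (2 probes) and Osmr. Median processed signals of the 8 arrays were between 56.2 and 84.8, between 26543 and 30490 probes per array were well above background, and 0 spots were saturated. All arrays lay on 1 slide and were read in 1 scan. Non-irradiated arrays occupied slide columns 1 and 3 and irradiated arrays columns 2 and 4, and these positions cannot be told apart from the treatment. The number of arrays limits the precision. The labels number the cultures but do not state how many animals each came from. Because the replicate number was a block in the fit, p-values rest on the spread of the within-pair differences, not on that between replicates. That spread was moderated by limma, which draws each probe's variance towards a value shared by all fitted probes. An SE is therefore not that of the 4 pairs alone. For the brighter Jak1 probe the SD of the pair differences was 0.052 and the SE 0.11.

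The labelled cell type was checked against marker genes. All 7 osteoblast markers (Runx2, Sp7, Alpl, Bglap, Col1a1, Ibsp and Spp1) were well above background on all 8 arrays. Of 8 macrophage and leukocyte markers 5 (Cd68, Cd14, Lyz2, Itgam and Aif1) were above background on all 8 arrays. Csf1r was above it on 2 non-irradiated and 3 irradiated arrays, and Adgre1 on 3 and 3. Ptprc, which encodes the pan-leukocyte antigen CD45, was above it on 1 array. Of 5 endothelial markers 4 were detected throughout and Emcn was detected on 0 arrays, and all 5 muscle markers were detected throughout. Within these lists 0 markers had an unadjusted p below 0.05. Summed signals of the macrophage list (normalized, linear scale) were between 1474 and 1614 in non-irradiated and between 1196 and 1818 in irradiated cells. Those of the endothelial list were 410 to 1290 and 439 to 1345, and those of the muscle list 304 to 2717 and 315 to 2027. The muscle sum was highest in replicate 1 of both groups, which is also the replicate that stood apart for the brighter Jak1 probe. The second Jak1 probe was highest in replicate 4 of both groups. Of all genes tested, 33.5% were highest in replicate 1 by pair mean. Whether these cells had a part in any result below was not tested.

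**Figure D1:**
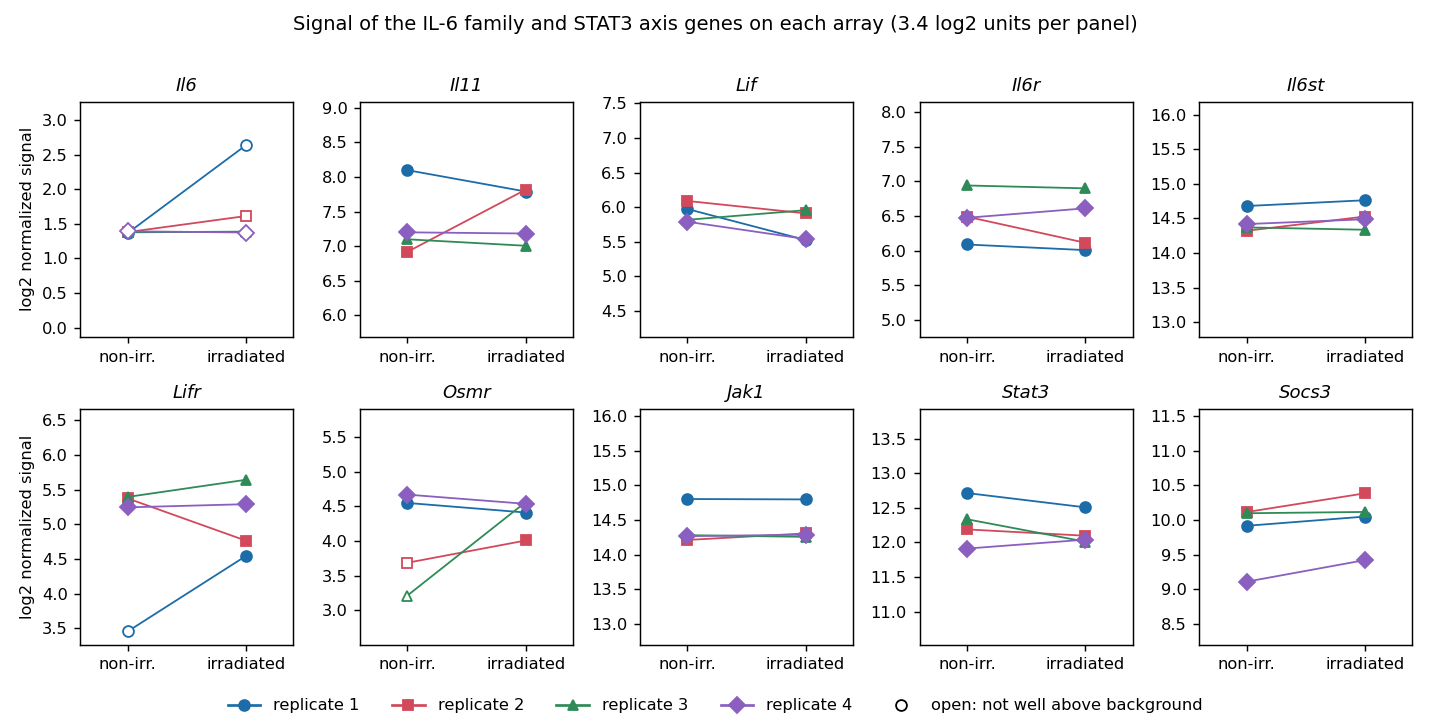
Log2 normalized signal (y axis) of the probe standing for each of the 10 genes on both arrays of each replicate, with lines joining a pair and open symbols where the probe was not well above background. Each panel spans 3.4 log2 units, so slopes can be compared; Socs3 is higher in all 4 irradiated arrays of the pairs, by 0.02 to 0.31, and Il6 has open symbols on all 8 arrays.

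IL-6 is the inflammatory cytokine that names the family. The Il6 probe read 1.37, 1.38, 1.38 and 1.39 in non-irradiated replicates 1 to 4, and 2.64, 1.61, 1.39 and 1.37 in irradiated replicates 1 to 4. All 8 values lay below the lowest signal of any probe well above background on its own array, which ranged from 3.29 to 4.04. The gene was therefore not tested, and no fold is given. The probe, at chr4:457279-458563 on rn4, covers 1285 genomic bases with its 60 bases, so it crosses an intron. An Il6 level below this detection limit in either group was not measurable with this probe.

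Of 7 listed genes that induce Il6 or control the stability of its mRNA, Il1a, Il1b, Tnf, Nfkbiz and Zc3h12a were not well above background on all 4 arrays of either group. Arid5a, whose product stabilizes Il6 mRNA, differed by 0.27 ± 0.15 (log2, SE), with 3 of 4 pairs higher. Zfp36, whose product promotes the decay of cytokine mRNAs, differed by -0.10 ± 0.15, with 1 of 4 pairs higher. Neither passed the test.

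Promoters were read because cytokine and feedback genes of this axis are controlled at transcription. RefSeq promoters (GRCr8, from 250 bases before to 50 bases after the start site) were found for 8 of the 10 genes. The STAT motif TTCNNNGAA, searched on both strands, was in 0 of these 8 windows and in 8.87% of all 33469 promoters of the same length. The cAMP response element TGACGTCA was in the Il6 window, at -162 from the start site, and in 1.83% of all promoters. An exact NF-κB sequence, searched with no variable letters, was also in the Il6 window, at -68 from the start site. The same letters were in 0.078% of all promoters. That percentage holds for this exact sequence and not for NF-κB motifs in general, whose other forms were not searched. It is therefore no measure of whether the Il6 promoter stands out. The stretch that holds the cAMP response element and the NF-κB sequence is at chr4:5894626-5894745 of GRCr8 on the minus strand, with both matches in capitals.
Il6 promoter, -170 to -51: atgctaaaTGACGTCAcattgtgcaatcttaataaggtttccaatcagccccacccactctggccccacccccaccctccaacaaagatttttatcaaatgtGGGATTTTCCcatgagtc
The 2 motifs overlap neither each other nor the start site, and a match describes the letters of the window, not binding in these cells.

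IL-11 is a cytokine of stromal cells and osteoblasts with known roles in bone formation. Il11 was well above background on all 8 arrays. Its signal was 8.10, 6.92, 7.10 and 7.20 in non-irradiated replicates 1 to 4 and 7.79, 7.82, 7.01 and 7.18 in irradiated replicates 1 to 4. The 2 groups overlapped. Pair 2 alone was higher after irradiation, by 0.90, and pairs 1, 3 and 4 differed by -0.31, -0.09 and -0.02. The estimate was 0.12 ± 0.22 (95% interval -0.41 to 0.65), and without replicate 2 it became -0.14.

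LIF is a cytokine with known effects on osteoblasts and their precursors. The brighter Lif probe, A_43_P12157, read 5.97, 6.09, 5.82 and 5.79 in non-irradiated replicates 1 to 4 and 5.53, 5.91, 5.96 and 5.54 in irradiated replicates 1 to 4. It was lower in 3 of 4 pairs, and the estimate was -0.18 ± 0.14 (-0.52 to 0.15). The second probe, A_64_P115666, read 5.53, 5.75, 5.68 and 5.52 in non-irradiated and 6.15, 5.77, 5.75 and 5.30 in irradiated replicates 1 to 4. It was higher in 3 of 4 pairs, and its estimate was 0.12 ± 0.16 (-0.28 to 0.52).

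The estimates for Lif opposed each other even though the probes start 2 bases apart (chr14:84890560-84890619 and chr14:84890562-84890621, rn4) and share the 44 bases shown in capitals above. The disagreement was widest in pair 1, where the first probe differed by -0.45 and the second by 0.61. The remaining Lif probe, A_44_P1112916, which starts 1138 bases further along, was above background only in irradiated replicate 1, at 4.72, and lay between 1.44 and 2.12 on the other 7 arrays. Irradiated replicate 1 was thus the highest array for both this probe and A_64_P115666 and for Il6, and the lowest for the first Lif probe. In pairs 3 and 4 both of the tested Lif probes had the same sign (0.14 and 0.07, then -0.25 and -0.22), and without replicate 1 both estimates were negative, at -0.10 and -0.04. The opposition of the estimates thus rested on pair 1, and its cause was not tested.

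**Figure D2:**
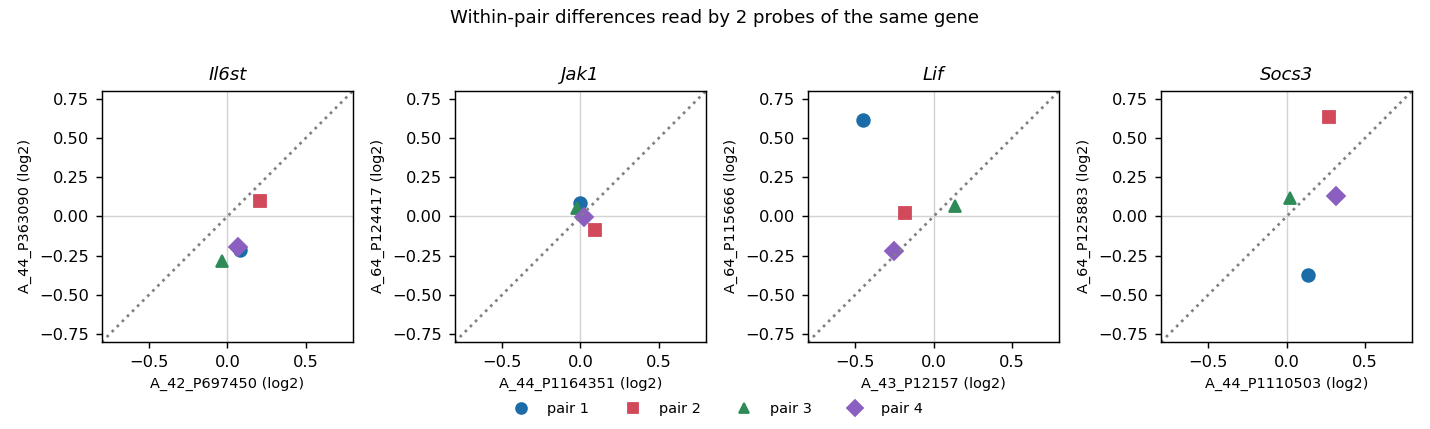
Within-pair log2 differences (irradiated minus non-irradiated) read by the brighter probe (x axis) and by the second probe (y axis) of Il6st, Jak1, Lif and Socs3, with 1 symbol per pair and a dotted line where both would be equal. Pair 1 of Lif lies far from the line, at -0.45 and 0.61, while all pairs of Jak1 lie at most 0.095 from 0 on both axes.

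The IL-6 receptor α chain, encoded by Il6r, is the chain that binds IL-6. Il6r was above background on all 8 arrays with 1 of its 2 probes, at 6.09, 6.49, 6.94 and 6.47 in non-irradiated and 6.01, 6.11, 6.90 and 6.61 in irradiated replicates 1 to 4. Replicate 3 was the highest in both groups. The estimate was -0.09 ± 0.13 (-0.41 to 0.22), with 3 of 4 pairs lower, and it became 0.005 without replicate 2. The second probe was above background on 3 of 8 arrays and was not tested.

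Il6st encodes gp130, the signal-transducing chain all these cytokines share. Its brighter probe read 14.68, 14.32, 14.37 and 14.42 in non-irradiated and 14.76, 14.53, 14.34 and 14.49 in irradiated replicates 1 to 4, and was higher in 3 of 4 pairs. The estimate was 0.08 ± 0.11 (-0.19 to 0.35). The second probe, which starts 5276 bases upstream on rn4, read 9.14, 8.44, 7.92 and 7.92 against 8.93, 8.54, 7.64 and 7.72, and was lower in 3 of 4 pairs. Its estimate was -0.15 ± 0.12 (-0.44 to 0.14). Both probes of Il6st had their highest value in replicate 1 of each group, and the second probe spread over 1.25 log2 units between replicates against 0.37 for the first.

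Lifr encodes the receptor chain for LIF, and Osmr the specific chain for oncostatin M. Lifr was read at 3.45, 5.37, 5.40 and 5.24 in non-irradiated and 4.54, 4.76, 5.64 and 5.29 in irradiated replicates 1 to 4, and the first of these 8 values was not well above background. Pair 1 differed by 1.09 and pair 2 by -0.61, so the estimate of 0.19 ± 0.27 (-0.46 to 0.85) became -0.11 without replicate 1 and 0.46 without replicate 2. The other 2 Lifr probes were above background on 1 or 2 of 8 arrays. Osmr was read at 4.55, 3.69, 3.21 and 4.67 in non-irradiated and 4.41, 4.01, 4.56 and 4.54 in irradiated replicates 1 to 4, and replicates 2 and 3 of the non-irradiated group were not well above background. Its estimate of 0.35 ± 0.27 (-0.31 to 1.01) was the largest of the 13 probes and rested on pair 3, which differed by 1.35. Without replicate 3 it was 0.02, and with normexp background correction it was 0.02 as well. The 1.35 of Osmr and the 1.09 of Lifr each came from a pair whose non-irradiated array was not well above background, whereas both arrays of Lifr pair 2 were above it.

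Jak1 encodes the main kinase used by gp130 receptors. Jak1 was read at 14.80, 14.21, 14.28 and 14.27 in non-irradiated and 14.80, 14.31, 14.26 and 14.29 in irradiated replicates 1 to 4. Replicate 1 stood apart above the other replicates in both groups, while the difference with irradiation was 0.02 ± 0.11 (-0.24 to 0.28). The second Jak1 probe, 1134 bases away, gave 0.01 ± 0.11 (-0.25 to 0.28) and had replicate 4 rather than replicate 1 highest in both groups (8.70, 8.56, 8.55 and 8.81 in non-irradiated and 8.79, 8.47, 8.60 and 8.81 in irradiated replicates 1 to 4). Both intervals reached at most 1.21-fold upwards and 0.840-fold downwards.

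Stat3 encodes the transcription factor at the end of the pathway. Its probe read 12.71, 12.19, 12.33 and 11.91 in non-irradiated and 12.51, 12.10, 12.01 and 12.04 in irradiated replicates 1 to 4. Pairs 1, 2 and 3 were lower after irradiation, by -0.21, -0.09 and -0.32, and pair 4 was higher by 0.13. The estimate was -0.12 ± 0.12 (-0.43 to 0.18). STAT3 is regulated mainly by phosphorylation, which mRNA arrays do not measure.

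Socs3, the feedback gene, was read by 2 probes. The brighter one, A_44_P1110503 (chr10:107957211-107957270 on rn4), is printed as 10 spots on each array. Its mean was 9.92, 10.12, 10.10 and 9.11 in non-irradiated and 10.05, 10.39, 10.12 and 9.42 in irradiated replicates 1 to 4. The pairs differed by 0.13, 0.27, 0.02 and 0.31, all higher after irradiation, although the groups overlapped. The estimate was 0.18 ± 0.11 (95% interval -0.10 to 0.46, 0.935- to 1.38-fold). An exact two-sided sign-flip permutation test over the 4 pairs gave p = 0.125, the smallest value that 4 pairs allow.

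Spots of this probe varied little within an array. Between 7 and 10 of the 10 spots were used per array, and the SD of their log2 signal was 0.028 to 0.057, so the SE of an array's mean was 0.010 to 0.019. Differences of 0.13 to 0.31 in pairs 1, 2 and 4 exceeded this error between spots several-fold, and the 0.02 of pair 3 was of its size. The spread between replicates was wider than either, since the pair means ranged over 0.99 log2 units with replicate 4 lowest in both groups. Spots of 1 array share a culture, a labeling and a hybridization and are not replicates of the irradiation. Their SE therefore leaves out error between arrays and is not the error of a pair difference.

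**Figure D3:**
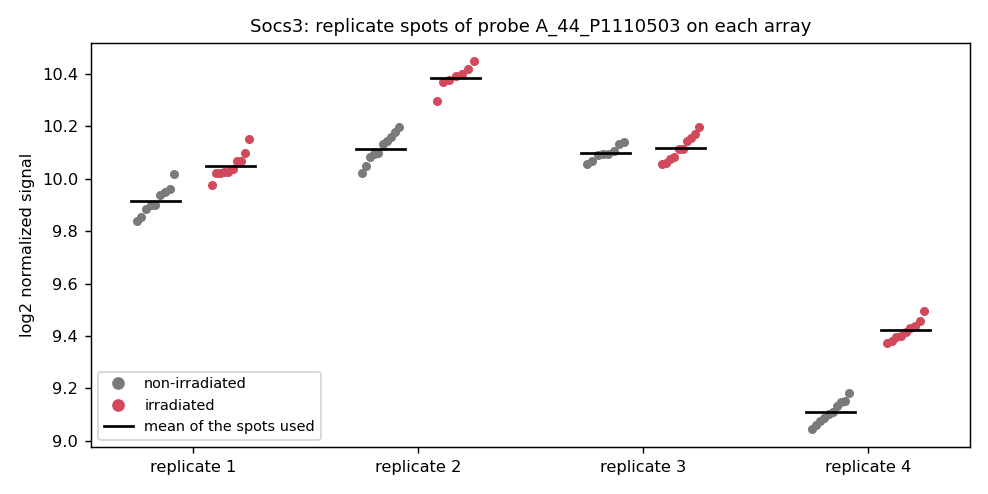
Log2 normalized signal (y axis) of the spots of Socs3 probe A_44_P1110503 that were used on each array, sorted within an array, in non-irradiated (grey) and irradiated (red) cells of each replicate, with black bars for the mean. Spot clouds of pairs 2 and 4 are separate, those of pairs 1 and 3 overlap, and replicate 4 lies lowest in both groups.

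The second Socs3 probe, at the end of the coding sequence and 1425 bases away on rn4, read 6.46, 5.88, 6.31 and 6.14 in non-irradiated and 6.08, 6.51, 6.42 and 6.26 in irradiated replicates 1 to 4. It was higher in 3 of 4 pairs and differed by -0.37 in pair 1, with an estimate of 0.13 ± 0.18 (-0.31 to 0.56). Without replicate 2 that estimate was -0.04, whereas the estimate of the brighter probe stayed between 0.14 and 0.24 when any 1 replicate was left out. Replicate 4 was not the lowest for the second probe, where the pair means ranged over only 0.17.

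**Figure D4:**
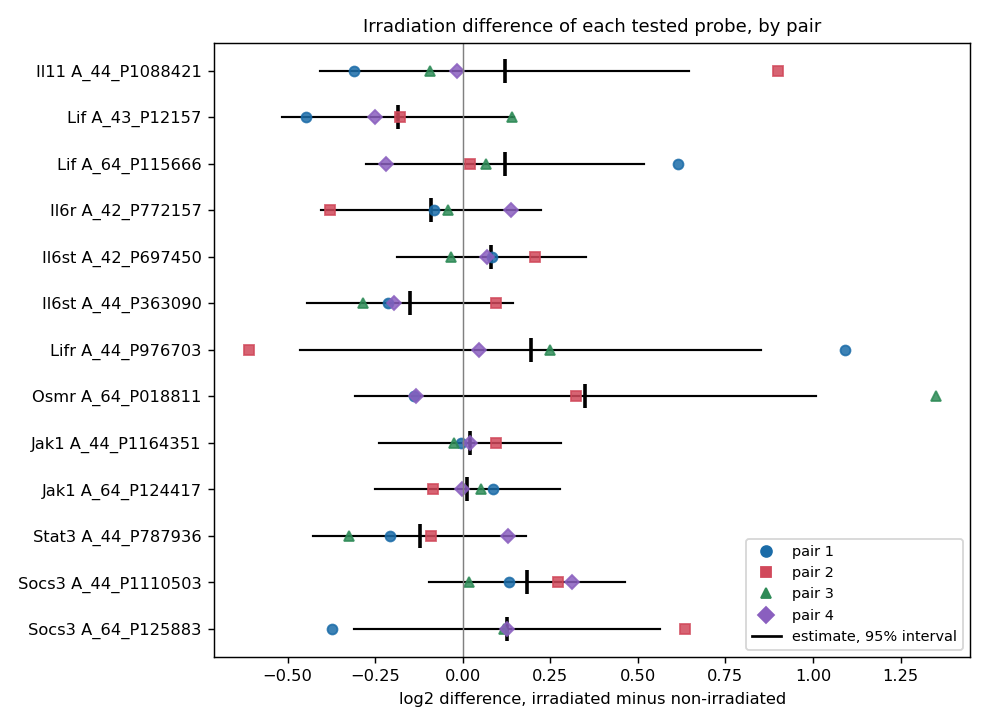
Log2 difference between irradiated and non-irradiated cells (x axis) for the 13 tested probes, with 1 symbol per pair, a black tick for the estimate and a line for its 95% interval. All 13 intervals hold 0, and only that of Osmr reaches beyond a 2-fold change, at 2.01-fold.

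Considered over all 13 tested probes, 0 had an unadjusted p below 0.05, where 2.54% of all 26399 fitted probes had one (limma). All 13 adjusted p-values were 1.00 (limma, adjusted over all fitted probes), as was the smallest over the whole array. One member probe (Socs3) was higher in 4 of 4 pairs, where 3.57% of the 26250 probes with all 8 values were. None was lower in 4 of 4 pairs, where 4% of probes were. The 2 groups were apart for 0 member probes, where they were for 0.579% of all probes. A fold change above 2 with an adjusted p below 0.1 was reached by 0% of all probes. The median log2 difference was 0.08 over the 13 probes and -0.0034 over all probes, and the median absolute difference was 0.12 against 0.081. For 12 of 13 probes the 95% interval lay inside a 2-fold change either way.

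For 8 of the 9 tested genes the difference with irradiation was smaller than the SD of the pair means, as for 87.1% of all genes tested. Lif was the exception with its brighter probe, at -0.18 against an SD of 0.15. Its second tested probe was not, at 0.12 against an SD of 0.19. Il11, Il6st, Jak1 and Stat3 were highest in replicate 1, Socs3 and Lif in replicate 2, Il6r and Lifr in replicate 3 and Osmr in replicate 4. No replicate was therefore highest for the axis as a whole.

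Ligands were compared with receptors within each pair, as a description with no test. The median difference of Il11 and Lif was -0.38, 0.36, 0.02 and -0.13 in pairs 1 to 4. That of the 4 receptor genes was 0.001, -0.09, 0.11 and 0.06, and that of Jak1 and Stat3 was -0.11, 0.002, -0.17 and 0.07. By these medians the ligands lay below the receptors in pairs 1, 3 and 4 and above them in pair 2. Lifr and Osmr passed the filter through the irradiated group only, being detected on 3 and 2 of the 4 non-irradiated arrays. In pair 3 Il6r and Il6st, detected on all 8 arrays, differed by -0.04 and -0.03, below the 0.02 of the ligands. The order in pair 3 thus rested on Lifr and Osmr. Ligands minus receptors came to -0.38, 0.45, -0.08 and -0.19, with an SD of 0.35 over pairs. Only the brighter Lif probe entered here. It differed by -0.45 in pair 1, where the second tested probe differed by 0.61. The difference of the median estimates was -0.17. It was -0.036 when the probes of a gene were averaged and -0.028 with all 8 arrays above background. The receptor median of 0.14 was carried by Lifr and Osmr and was -0.005 when probes had to be above background on all 8 arrays, which leaves Il6r and Il6st. By the same medians Socs3 lay above both ligands and receptors in pairs 1 and 4 and below the ligands in pair 2. It lay below both in pair 3, where it differed by 0.02 and was above Il6r and Il6st.

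Of the 9 genes, 3, 5, 4 and 6 were higher after irradiation in pairs 1 to 4, and of all genes 41.8, 58.7, 47.7 and 51.5% were. Signs in pairs 1 and 2 were opposite for 74.99% of all genes and for 4 of the 9 genes of the axis. Across probes, the deviations from the group mean correlated at 0.61, 0.05, 0.57 and 0.75 between the 2 arrays of replicate numbers 1 to 4, and irradiated replicate 2 correlated better with another number's array, at 0.44. Values without replicate 2 are given above where they turn a direction, for Il11, Il6r and the second Socs3 probe. Jak1 also turned, from 0.02 to -0.003.

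The wider pathway was described with a list of 66 other genes, of which 50 could be tested. Higher signals after irradiation were read for 32 (50.7% of all genes tested were higher) and lower signals for 18, and 0 had an unadjusted p below 0.05 in either direction. Their median log2 difference was 0.03, against 0.0019 over all genes tested. Tyk2, Cish and Ccl2 were higher in 4 of 4 pairs and Fos was lower in 4 of 4, by 0.11 ± 0.11, 0.23 ± 0.16, 0.16 ± 0.11 and -0.11 ± 0.11. Of all 20627 genes tested, 748 were higher and 736 lower in 4 of 4 pairs. Tyk2 is a JAK kinase, Cish a feedback inhibitor related to Socs3, Ccl2 the monocyte-attracting chemokine and Fos an immediate early gene. None of these passed the test.

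Grouped by role, 5 of 6 other ligands were higher, with a median of 0.09, and the lowest was Osm (oncostatin M, -0.05). The 2 other receptors were Cntfr, the ciliary neurotrophic factor receptor (0.06), and Il11ra1, the chain that binds IL-11 (-0.01). The 3 other JAK kinases had a median of -0.12, from Jak2 (-0.22) to Tyk2 (0.11). The 5 other STATs had a median of 0.04, from Stat2 (-0.09) to Stat5b (0.11).

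Of 10 other feedback inhibitors and phosphatases 7 were higher, with a median of 0.02, from Pias3 (-0.02) to Cish (0.23). Genes known as STAT3 targets numbered 22, of which 14 were higher and 8 lower, with a median of 0.02. They ran from Junb, an AP-1 subunit (-0.20), to Il4r, the IL-4 receptor chain (0.21). Il4r shows how far the pairs could part, with differences of 0.50, 0.21, -0.65 and 0.79. Socs1, the relative of Socs3 that is induced by interferons, was among the 15 listed genes that stayed below the detection rule, and Il27 had no probe of that name.

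**Figure D5:**
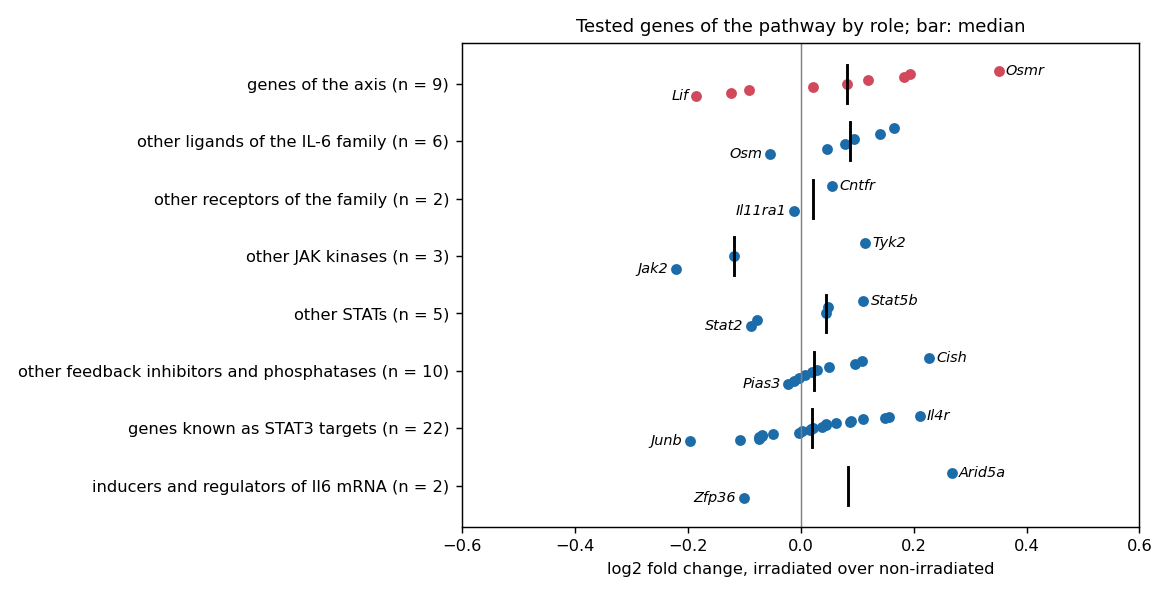
Log2 fold change of irradiated over non-irradiated cells (x axis) for each tested gene of the axis (red, 1 probe a gene, n = 9) and of the wider pathway (blue) by role, with the median as a bar and the genes at the ends of each role named, except at the upper end of the other ligands. All medians of the wider pathway lie between -0.12 and 0.09, and every gene shown lies between -0.22 and 0.35.

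Genes with the most similar pattern over the 8 arrays were listed for Lif and Socs3 among 12584 genes above background on all 8 arrays. For the brighter Lif probe they were Vsig10, Sod1 and Emx1, with Pearson r of 0.950, 0.947 and 0.945. For the brighter Socs3 probe they were Csad, Trnp1 and Rab15, with r of 0.984, 0.978 and 0.975. All 3 of the latter shared with Socs3 a low replicate 4 in both groups, for example 6.06 and 6.39 for Csad against 7.09 to 7.69 on the other arrays. These correlations were picked as the highest of many and are given as a description. Il6 has no such list because it was not detected.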

How the data were processed

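Sample labels gave the groups and the replicate numbers. The authors deposited, per the file headers and labels, spot intensity from Feature Extraction 11.0.1.1, background-corrected within each array and not normalized between arrays. They also deposited log2 values of 24029 rows, per the methods quantile normalized, with medians of 7.62 to 7.67; 12 of the 19 probes are among them, and how their background was corrected is not given in the sources used here. Aligner and build do not apply to arrays, and probe positions are the array's own (rn4); exon or UTR annotation of that build was not used here.

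Log2 of the processed signal was quantile normalized over 58717 rat spots, leaving out outlying spots (446 to 690 per array), and averaged per probe. A probe was kept when over 50% of its spots were well above background on all 4 arrays of a group (26404 probes, 26399 fitted). The test was limma 3.58.1 (lmFit, eBayes; R 4.3.3), two-sided, the replicate number being a fixed block, with Benjamini-Hochberg adjustment over all probes. ± is the moderated SE, and intervals, built from it, cover 95%. The block follows the pairs of the study's limma results and the names of the scanner files, which give both arrays of a number the same animal number; correlations of paired deviations are given above. For the fit, the code was tested on simulated data. The probe with the highest mean signal stood for a gene, and every probe of the 10 genes was reported. Of the other pathway genes, the highest and lowest of each role (1 of them is not reported here), any with p below 0.05 and, chosen after their values were seen, those moving one way in 4 pairs were named. The genes, lists, motifs and tests were chosen with earlier results of these data known. Promoters were RefSeq's (GRCr8). Alternatives included normexp (offset 50), 75th percentile scaling, the deposited values, other filters, outlying spots kept, each replicate left out, no block or a random block, a trended robust prior, the methods' paired test and probes averaged.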

Additional observations from a re-analysis of the deposited data

Results flagged for a closer look

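Of 26 groups of 4 arrays examined (13 probes, 2 groups each), 3 had 1 array far from the others, and chance gives about 5% of groups. Jak1 A_44_P1164351 read 14.80 in non-irradiated replicate 1, where the other 3 arrays lay between 14.21 and 14.28. It also read 14.80 in irradiated replicate 1, where the others lay between 14.26 and 14.31. The second Jak1 probe was not flagged. Lifr A_44_P976703 read 3.45 in non-irradiated replicate 1, not well above background, where the others lay between 5.24 and 5.40.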

How the results depend on the processing

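No probe passed a 2-fold change together with an adjusted p under 0.1 in any setting, and the smallest adjusted p in any setting was 0.212, with the replicate number as a random block. Probes at unadjusted p below 0.05 numbered 670, and 252 with normexp, 292 with the deposited values, 1658 with no filter, 384 with the trended robust prior and 246 with no replicate block; leaving out 1 replicate gave 392 (without 3) to 1410 (without 2), with 1077 without 1 and 402 without 4. Of these calls 55.8% were higher after irradiation, and 72.6% with scaling to the 75th percentile and 45.5% without replicate 2. The receptor median (0.14) was 0.019 with normexp, 0.040 with the deposited values, -0.0048 with all 8 arrays above background, and -0.0068 (without replicate 1) to 0.20 without 1 replicate. The main Il6st probe turned to -0.034 when probes were averaged. Leaving out 1 replicate also turned Il11 (-0.14 to 0.26), Il6r (-0.17 to 0.0046), Jak1 (-0.0032 to 0.037; second probe -0.012 to 0.045), the second Lif probe (-0.044 to 0.23), Lifr (-0.11 to 0.46) and the second Socs3 probe (-0.043 to 0.29). Ligands minus receptors ranged from -0.17 to -0.028 over the settings that kept all replicates, and from -0.36 to 0.090 in that series. Other pathway genes higher at p below 0.05 numbered 0 to 1 there, and 0 in the other settings. The other values were within 1.5 times or the spread between replicates and kept their side of the threshold; the block changed no call of the 10 genes. The cause of these shifts was not tested. Signals near background limit Il6, Lifr and Osmr most.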
